A study of Mus musculus with 49 samples.

Results

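Among 49 single cells of the embryonic mouse kidney mesenchyme, 30 had a high level of Crym, and 6 of those 30 had Six2 messenger RNA listed below 1 RPKM. The 6 cells were selected on 2 measured values: Crym at 10 RPKM or more and Six2 below 1 RPKM. RPKM divides the reads of a gene by its length and by the mapped reads of the library, so levels of different genes can be set side by side. They are cells 7, 32, 38, 41, 42 and 44, numbered as in the labels, and they made up 20% of the Crym-high cells (exact 95% binomial interval 7.71 to 38.6%, counting error only). Cell 7 had a library of low depth, in which a low level of Six2 was not detectable. The words without Six2 therefore describe the listed value. The other 24 Crym-high cells had Six2 at 1 RPKM or more, and 19 cells had Crym below 10 RPKM. Because the groups were made from measured values, the levels of Crym and Six2 given here describe the choice and are not results.

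All cells came from metanephric mesenchyme of embryos at 11.5 days post coitum (Theiler stage 19) that carried the transgene Tg(Crym-EGFP)82Gsat on a mixed background, with both sexes used. The fluorescence of that transgene guided the dissection, which also took a few cells outside the labelled area. The labels describe the Crym pattern at this stage as matching that of Six2. They name no embryo or litter, so all 49 cells are 1 sample, no p-value was computed, and every difference is a description of these cells.

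The metanephric mesenchyme surrounds the ureteric bud and holds the nephron progenitors, which later form the nephrons, and the stromal progenitors, which later form interstitium and mural cells. Six2, a homeobox transcription factor, keeps nephron progenitors from differentiating, while Osr1, Eya1, Sall1, Wt1 and the Hox11 genes act in the same mesenchyme before or beside it. Crym encodes mu-crystallin, a protein that binds thyroid hormone in the cytoplasm and also works as a ketimine reductase. Foxd1 marks the stromal progenitors, and Cxcl12 is a secreted chemokine that draws cells bearing the receptor Cxcr4.

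The promoter windows of Six2, whose transcript defines the groups, and of Cxcl12, which was higher in the 6 cells, are shown as RefSeq gives them in build GRCm38.p6, from 250 bases before to 50 bases after the start of the gene, 5′ to 3′ along the gene. Of the 4 genes looked up (Six2, Crym, Osr1 and Cxcl12), 2 matched an entry. Capitals mark a GC box (GGGCGG, read on both strands) or a CCAAT box (CCAAT, both strands), and overlapping matches were counted separately. The Six2 window is chr17:85688205-85688504 on the minus strand and the Cxcl12 window is chr6:117168285-117168584 on the plus strand.
Six2: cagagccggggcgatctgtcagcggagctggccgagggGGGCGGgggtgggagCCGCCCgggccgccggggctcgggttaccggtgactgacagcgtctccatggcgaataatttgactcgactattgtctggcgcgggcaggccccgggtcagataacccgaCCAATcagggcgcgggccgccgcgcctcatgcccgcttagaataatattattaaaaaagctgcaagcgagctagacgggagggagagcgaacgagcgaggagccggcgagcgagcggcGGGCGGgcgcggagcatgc
Cxcl12: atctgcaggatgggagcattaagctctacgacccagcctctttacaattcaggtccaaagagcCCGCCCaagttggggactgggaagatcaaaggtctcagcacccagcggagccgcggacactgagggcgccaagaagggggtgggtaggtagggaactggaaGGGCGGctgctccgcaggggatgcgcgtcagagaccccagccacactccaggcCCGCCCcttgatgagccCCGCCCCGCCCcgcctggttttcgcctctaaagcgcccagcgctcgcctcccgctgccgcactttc
The Six2 window held 3 GC boxes and 1 CCAAT box, and the Cxcl12 window held 5 GC boxes and no CCAAT box. Neither held TATAAA. Of 32851 promoter windows of the same length, 35.7% held a GC box, 37.4% a CCAAT box and 13.6% TATAAA on either strand. A match describes letters only, and the expression data do not bear on which sites are used.

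The 6 libraries were not alike. Cells 38 and 41 had 6164 and 6008 genes at 1 RPKM or more, within the 4178 to 6510 of the 24 cells with Six2 (median 5234). Cells 32, 42 and 44 had 4246, 3862 and 3610, and those of cells 42 and 44 lay below all 24. Cell 7 had 5232 genes but a relative depth of 0.0462, where the median cell is 1. In the other 5 cells relative depth ran from 0.693 to 1.25. Among the cells with Six2, cell 3 was as shallow (0.0346) and the other 23 lay between 0.699 and 1.52. In cell 7 the 10 highest genes took 37.4% of the summed RPKM, against 7.02 to 8.57% in the other 5. Low depth (cell 7) or few detected genes (cells 32, 42 and 44) thus marked 4 of the 6 cells. Their part in the differences was not tested, and values from cells 38 and 41 alone are given where they differ most.

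**Figure D1:**
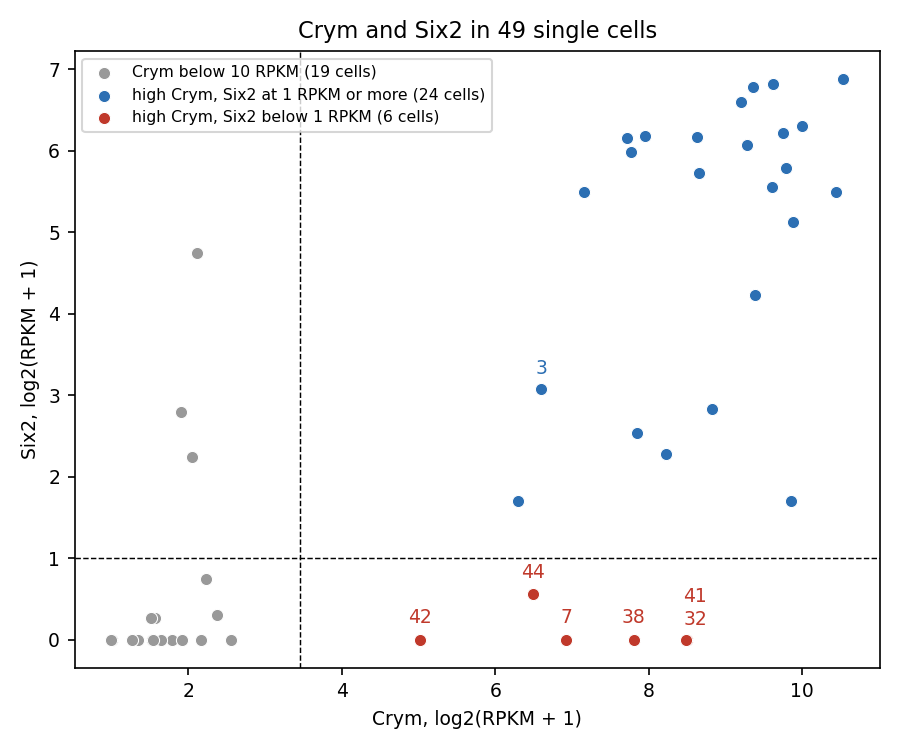
Crym (horizontal) against Six2 (vertical) in each of 49 cells, both as log2(RPKM + 1); dashed lines are the cuts at 10 and 1 RPKM, and numbers name the 6 cells without Six2 and the shallow cell 3. The 6 cells lie at the floor of the Six2 axis, and their Crym, 31.4 to 362 RPKM, lies below the median of the 24 cells with Six2.

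Crym stood at 121 RPKM in cell 7, 362 in cell 32, 222 in cell 38, 358 in cell 41, 31.4 in cell 42 and 88.9 in cell 44. In the 24 cells with Six2 the lowest, median and highest were 77.5, 604 and 1480 RPKM, and in the 19 Crym-low cells they were 0.999, 2.14 and 4.92 RPKM. All 6 cells were therefore far above the Crym-low cells and below the median of the cells with Six2. Six2 itself (chromosome 17, 86083608 to 86087594 in the coordinates of the authors' table, build mm9) was listed at 0 in 5 of the 6 cells and at 0.471 RPKM in cell 44. Of the 19 Crym-low cells, 3 reached 1 RPKM of Six2: cell 6 at 5.94, cell 8 at 25.9 and cell 31 at 3.73 RPKM.

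What a listed 0 means differed with depth. The values of Six2 were whole multiples of 1 step in 27 of the 32 cells above 0 (within 0.05 of a step), so 1 step was read as 1 sequencing read. One read of Six2 was worth 0.205 RPKM in cell 41, 0.245 in cell 38, 0.266 in cell 42 and 0.372 in cell 32, and in these 4 cells the limit that a count of 0 allows, 3 reads, came to 0.616 to 1.12 RPKM. In cell 7 one read was worth 5.58 RPKM and 3 reads 16.7 RPKM, so a level like that of the lowest cells with Six2 was not detectable there. The value in cell 44 was 2 reads. Just outside the cut were cell 5 at 2.24 RPKM (9 reads), cell 28 at 2.25 (10 reads), cell 47 at 3.86 (14 reads), cell 20 at 4.80 (13 reads), cell 16 at 6.15 (26 reads) and the shallow cell 3 at 7.44, which was 1 read. The next cell with Six2 stood at 17.9 RPKM. These read numbers are estimates and cover counting error only.

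Genes were compared by the mean of log2(RPKM + 1) in the 6 cells minus that in the 24 cells, a scale that understates the change of low genes. Of 13093 genes in the table, 9059 reached 1 RPKM in at least 5 of the 30 Crym-high cells and were compared, Crym and Six2 left out. A difference of at least 2 log2 units, 4-fold, was called higher or lower. By this measure 108 genes were higher (1.19%) and 376 were lower (4.15%), and the median difference of all genes was -0.28. Of these, 31 higher genes (0.342%) and 203 lower genes (2.24%) also stayed past 2 log2 units when each of the 6 cells was left out in turn. No gene separated the groups without overlap (0 genes, 0%). The count of higher genes was 183 without cell 7, 177 without cell 42 and 166 without cell 44, and the count of lower genes was 619 without cell 38 and 579 without cell 41. Leaving out both shallow cells, 3 and 7, gave 185 higher genes.

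**Figure D2:**
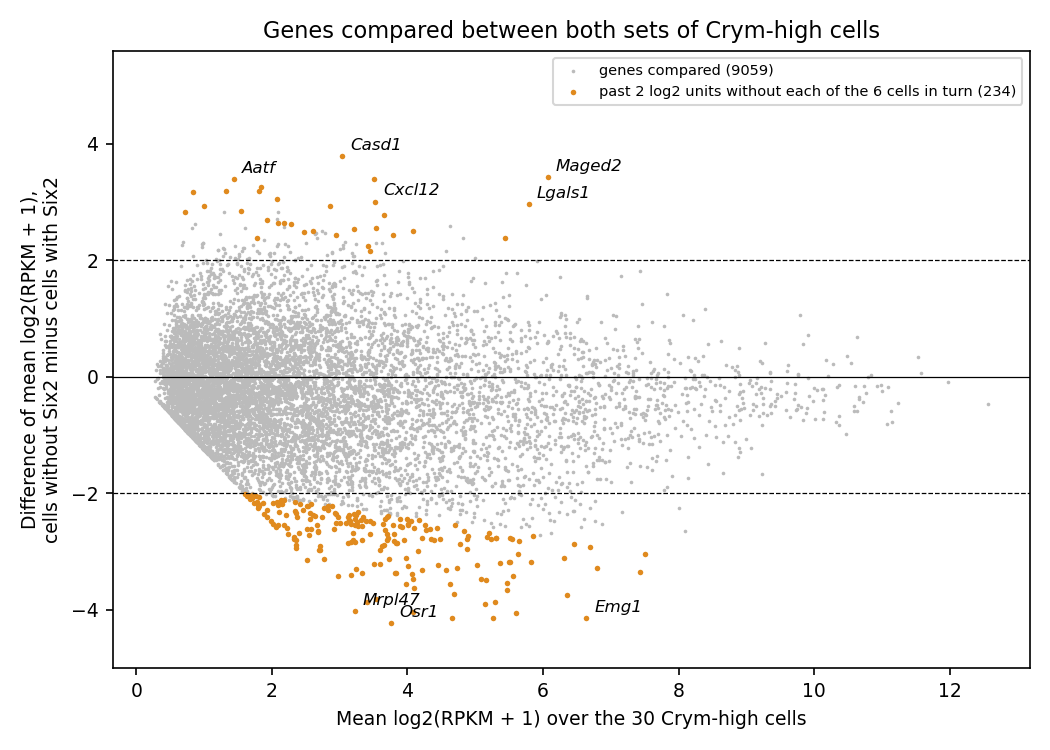
Difference of mean log2(RPKM + 1), the 6 cells without Six2 minus the 24 with Six2, against the mean over all 30 cells, for 9059 genes; orange points stayed past 2 log2 units (dashed lines) without each of the 6 cells in turn. Casd1 and Maged2 lie near the top, and Osr1 and Emg1 near the bottom.

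Osr1, a zinc finger transcription factor of the earliest kidney mesenchyme, had the largest difference below 0 among the genes named by rule. Cell 41 had 2.15 RPKM of Osr1 and cell 44 had 0.493, and the gene was listed at 0 in cells 7, 32, 38 and 42. In the cells with Six2 the lowest, median and highest were 0, 59.7 and 201 RPKM, and 19 of 24 reached 1 RPKM. The groups overlapped, because 5 cells with Six2 also lay below 1 RPKM. The mean log2 level was 0.37 ± 0.67 (SD, 6 cells) against 4.60 ± 2.73 (SD, 24 cells), a difference of -4.23 that ran from -4.49 to -4.16 as single cells were left out. The values of cells 41 and 44 came to 10 and 2 reads, and in cell 7 one read of Osr1 was worth 5.84 RPKM. Osr1 lies on chromosome 12, 9581248 to 9588306 (mm9).

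Low Osr1 did not follow low Six2 cell by cell. Among the 6 cells just above the Six2 cut, Osr1 was at 114 RPKM in cell 5, 84.1 in cell 47 and 183 in cell 20. It was at 0.236 in cell 28 and listed at 0 in cells 16 and 3. In the shallow cell 3 one read of Osr1 was worth 7.80 RPKM and 3 reads 23.4 RPKM. Its 0 therefore does not exclude levels seen in some cells with Six2. In the 19 Crym-low cells 4 reached 1 RPKM, and the median was 0. The cells without Six2 thus resembled the Crym-low cells in Osr1. Their difference from those cells in Crym was set by the choice of the groups.

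**Figure D3:**
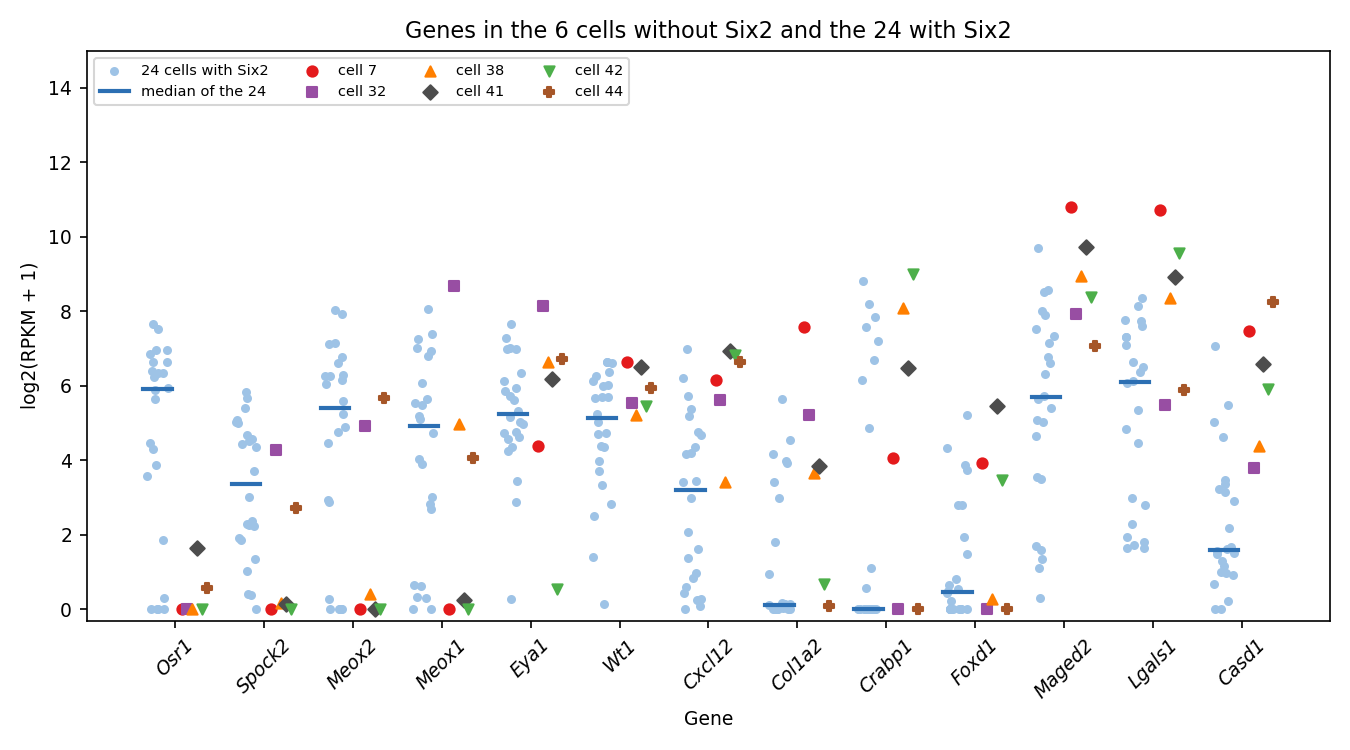
Level of 13 genes, as log2(RPKM + 1), in the 24 cells with Six2 (pale points, bar at the median) and in each of the 6 cells without Six2 (symbols by cell). Osr1 is near 0 in all 6 cells, Eya1 and Wt1 are present in most, and Cxcl12, Maged2 and Casd1 lie above the median of the 24 in all 6.

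Of 34 nephron progenitor genes in the table other than Crym and Six2, 30 passed the filter on low values, 5 were lower by 2 log2 units and none was higher, with a median difference of -0.47. The background for lower genes was 4.15% of those compared, and the median difference of all genes was -0.28. Besides Osr1 they were Meox2 (a homeobox factor, -2.57), Phf19 (a Polycomb-like protein, -2.55), Cited1 (a transcriptional cofactor of the cap mesenchyme, -2.17) and Spock2 (an extracellular proteoglycan, -2.01). Spock2 fell short of 2 log2 units without cell 7, 38, 41 or 42, the values then being -1.77, -1.80, -1.80 and -1.77. Cited1 was detected in none of the 6 cells and in 11 of 24.

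Meox2 and Spock2 were not absent from all 6. Meox2 was at 29.4 RPKM in cell 32 and 50.2 in cell 44, close to its median of 42.0 in the cells with Six2, and at 0.334 RPKM or 0 in the other 4. Spock2 was at 18.3 RPKM in cell 32 and 5.61 in cell 44 and at 0.123 or less elsewhere, against a median of 9.62. Phf19 was at 17.6 RPKM in cell 7 and 36.2 in cell 32 and below 1 in the rest, against 25.3. Cell 32 thus held all 3 genes, and cells 38, 41 and 42 held none of them at 1 RPKM.

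Other genes of the progenitor programme were held at ordinary levels. Eya1, a phosphatase and cofactor of homeobox proteins, stood at 20.0 RPKM in cell 7, 281 in cell 32, 98.6 in cell 38, 72.4 in cell 41, 0.467 in cell 42 and 106 in cell 44, against 0.220, 37.2 and 200 as the lowest, median and highest with Six2 and a median of 0.217 in Crym-low cells. Cell 42 alone among the 6 lay with the Crym-low cells for Eya1. Wt1, a zinc finger factor needed for the mesenchyme to survive, lay between 36.5 and 99.0 RPKM in all 6 cells, above the median of 34.3 of the 24. Sall1, another zinc finger factor of the mesenchyme, was detected in all 6 cells at 8.95 to 160 RPKM (median with Six2 67.9), and Robo2, a receptor for Slit proteins, at 16.1 to 110 (median 45.0). Nr2f2, a nuclear receptor, ranged from 130 to 517 RPKM (median 224). The difference was 0.19 for Eya1, 1.13 for Wt1, -0.45 for Sall1, 0.08 for Robo2 and 0.08 for Nr2f2.

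Several progenitor genes were high in some of the 6 cells and low or absent in the others. Meox1, a homeobox factor, reached 410 RPKM in cell 32, above the highest of the 24 (267), with 30.3 in cell 38 and 15.7 in cell 44. Npnt, an extracellular ligand of integrin alpha 8, was at 223 RPKM in cell 44 and 53.6 in cell 32 (highest with Six2 92.3). Tmem100, a membrane protein, was at 199 RPKM in cell 44 and at 0.292 or less in the rest. Gdnf, the growth factor that attracts the ureteric bud, was at 31.3 RPKM in cell 38 and 58.9 in cell 41 and at 0.141 or less in the other 4, while 11 of 24 cells with Six2 detected it. Bmp7, a secreted factor for progenitor survival, was also confined to cells 38 (30.3 RPKM) and 41 (19.3) among the 6.

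The remaining members differed by less than 2 log2 units. Cited2 (-1.74), Hoxa11 (-1.24), Meox1 (-1.16), Gas1 (-1.13), Itga8 (-0.99), Traf1 (-0.80), Pax2 (-0.50), Bmp7 (-0.41), Rspo3 (-0.39), Rspo1 (-0.14), Gdnf (-0.12) and Fgf9 (-0.08) lay below 0. Npnt (1.75), Eya4 (0.67), Sall2 (0.41) and Tmem100 (0.08) lay above it, and Hoxd11 was at -0.00. Uncx, Pax8 and Hoxc11 were listed at 0 in all 6 cells and detected in 12, 5 and 6 of the 24. Fgf8, Fgf20 and Dpf3 reached 1 RPKM in too few cells to be compared. Particular members were low in the 6 cells, Osr1 above all, while Wt1 and Sall1 were detected in all 6 and Eya1 in 5.

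Cxcl12 had the largest difference above 0 in the stroma list. It stood at 70.3 RPKM in cell 7, 47.9 in cell 32, 9.64 in cell 38, 121 in cell 41, 112 in cell 42 and 99.9 in cell 44. In the cells with Six2 the lowest, median and highest were 0, 8.33 and 127 RPKM, and in the Crym-low cells the median was 134. All 6 cells lay above the median of the cells with Six2, the nearest being cell 38, and the groups overlapped. The difference was 3.01 and ran from 2.81 to 3.51 as single cells were left out, with mean log2 levels of 5.93 ± 1.33 (SD, 6 cells) and 2.92 ± 2.22 (SD, 24 cells). Against only the 6 cells with Six2 that had the fewest genes detected, whose Cxcl12 was 0 to 1.63 RPKM, the difference was 5.43. Cxcl12 lies on chromosome 6, 117118553 to 117131386 (mm9).

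Cxcr4, the receptor of Cxcl12, was named after its values were seen. It was listed at 0 in all 6 cells, reached 1 RPKM in 12 of the 24 cells with Six2 (highest 48.6 RPKM) and in none of the 19 Crym-low cells (highest 0.999 RPKM). It was 1 of 55 genes (0.607%) that stayed below 1 RPKM in all 6 cells while at least 12 of the 24 detected them.

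Of 24 stroma genes in the table, 20 passed the filter, 3 were higher by 2 log2 units and none was lower, against 1.19% of all genes called higher. The median difference was 1.14, against -0.28 over all genes, and 17 of the 20 lay above 0. Next to Cxcl12 the higher genes were Col1a2, a chain of type I collagen (2.17), and Crabp1, a binding protein for retinoic acid (2.15). Neither was past 2 log2 units without every cell: Col1a2 was at 1.36 without cell 7 and 1.83 without cell 32, and Crabp1 at 1.45 without cell 38, 1.78 without cell 41 and 1.27 without cell 42. Without cell 44 the list had 5 higher genes, where 1.84% of all genes were higher. With cells 38 and 41 alone, both of ordinary depth, the median difference was 1.82 and 9 genes were higher, where all genes had a median of 0.16 and 11.4% of them were higher. With cells 32, 42 and 44 alone the list's median was 0.30 and 1 gene was higher, where all genes had a median of -0.70 and 3.30% were higher.

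The stroma genes were spread unevenly over the 6 cells. Crabp1 was at 516 RPKM in cell 42, 274 in cell 38, 88.2 in cell 41 and 15.9 in cell 7, and listed at 0 in cells 32 and 44, with a median of 0 in the cells with Six2 and 313 in the Crym-low cells. Col1a2 was at 189 RPKM in cell 7, 36.1 in cell 32, 13.4 in cell 41 and 11.8 in cell 38, and below 1 in cells 42 and 44. Foxd1 was at 42.9 RPKM in cell 41, above the highest of the 24 (36.4), at 10.0 in cell 42 and at 14.3 in cell 7, where that value was 3 reads, and at 0.209 or 0 in cells 32, 38 and 44. Col3a1, a chain of type III collagen, was at 45.1 to 50.0 RPKM in cells 7, 41 and 42 and below 1 in the others. Foxd1 and Col3a1 were thus both at 1 RPKM or more in cells 7, 41 and 42, 3 of the 6, and the same held in 6 of the 24 cells with Six2.

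Cell 38 held another set of stroma genes. Pdgfra, the receptor for platelet-derived growth factor, was at 56.0 RPKM there. Ebf1, a transcription factor, was at 129 RPKM, and Aldh1a2, the enzyme that makes retinoic acid, at 220, and all 3 values lay above the highest of the 24 cells with Six2 (53.8, 48.9 and 214). Cell 41 was also high for Ebf1 (79.5 RPKM), Ecm1 (85.1), Pdgfrb (46.5) and Tcf21 (290). Tcf21, a basic helix-loop-helix factor of kidney mesenchyme, was at 9.56 RPKM or less in the other 5 cells against a median of 56.1 with Six2 (difference -1.96). In cells 32 and 44 Pdgfra, Ebf1, Ecm1, Crabp1, Foxd1 and Col3a1 were all at 0.175 RPKM or less. Pdgfrb went the other way in cell 44, at 14.5 RPKM (159 reads), just above the highest cell with Six2 (14.1). It was listed at 0 in cell 32.

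Meis2 (1.01), Nr2f1 (1.42) and Meis1 (0.49), transcription factors detected in all 6 cells, are found beyond stroma, and Meis1 and Meis2 were detected in all 24 cells with Six2. Ebf1 (1.86), Ecm1 (1.73), Pdgfrb (1.49), Col1a1 (1.23), Pdgfra (1.22), Col3a1 (1.22), Aldh1a2 (1.06), Foxd1 (0.96), Fat4 (0.68), Sfrp1 (0.44) and Tbx18 (0.22) lay above 0 without being called. Vim (-1.15) and Rarb (-0.62) lay below 0 with Tcf21. Postn and Lum were listed at 0 in all 6 cells, and Dcn and Ntn1 did not pass the filter.

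The mean log2 level of each list set the 6 cells apart from one another. For the stroma list cell 41 (4.36) ranked highest of the 30 Crym-high cells, and cells 7 (3.58), 38 (3.39) and 42 (2.97) ranked 27, 26 and 22 from the lowest. Cells 32 (1.42) and 44 (1.33) ranked 12 and 10, near the median of the cells with Six2 (1.77), and the median of the Crym-low cells was 4.31. For the nephron progenitor list cell 42 (1.02) ranked lowest and lay near the median of the Crym-low cells (1.10). Cell 7 (1.80) ranked 3, cell 44 (2.11) 5, cell 41 (2.11) 6 and cell 38 (2.26) 9, while cell 32 (2.90) ranked 23 and exceeded the median of the cells with Six2 (2.71). No single profile described the 6 cells: cells 7, 38, 41 and 42 had a stroma level above the median of the cells with Six2, and cells 32 and 44 had one below it. Cells 38 and 41 also had more genes detected than the median of the cells with Six2, and whether any chamber held more than 1 cell was not tested.

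**Figure D4:**
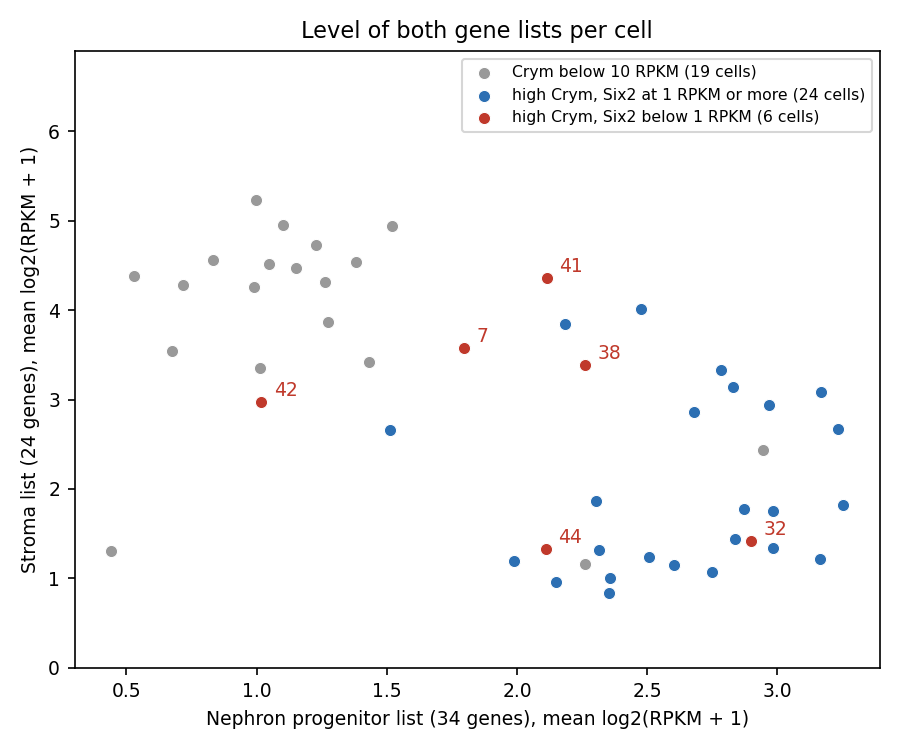
Mean log2(RPKM + 1) over 34 nephron progenitor genes (horizontal) and 24 stroma genes (vertical) in each of 49 cells, Crym and Six2 left out; numbers name the 6 cells without Six2. Cells 7, 38 and 41 lie high on the stroma axis and to the right of most Crym-low cells, cell 42 lies by the Crym-low cells, and cells 32 and 44 lie among the cells with Six2.

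The likeness of whole cells was measured by Spearman correlation over 8949 genes, as a description, since cells share tissue and chemistry and differ in depth. Cells 32, 38, 41 and 44 were nearer on average to the cells with Six2 than to the Crym-low cells, by 0.0246, 0.0228, 0.00608 and 0.0157. Cells 7 and 42 were nearer to the Crym-low cells, with differences of -0.0141 and -0.0169. Among the 24 cells with Six2, 23 were nearer to their own group. Among the Crym-low cells 3 of 19 were nearer to the cells with Six2: cells 6, 8 and 25, of which cells 6 and 8 held Six2 above 1 RPKM. The nearest cell to cell 7 was the other shallow library, cell 3 (0.481). Cells 32, 38 and 41 were nearest to cells 12, 23 and 48, all with Six2. Several Crym-low cells were also nearest to these, among them cell 6 to cell 12, cell 30 to cell 23 and cell 40 to cell 48. Six2 was listed at 0 in cells 30 and 40. A nearest cell with Six2 thus does not set a cell apart from the Crym-low cells. Cell 42 was nearest to cell 7 (0.337), and cell 44 to cell 8 (0.283), the Crym-low cell with Six2 at 25.9 RPKM.

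Over all genes, list members included, 25 met the naming rule for higher genes. The 15 largest were named, among them Cxcl12, given above. Casd1, which adds acetyl groups to sialic acid, was at 178 RPKM in cell 7, 12.9 in cell 32, 20.0 in cell 38, 94.7 in cell 41, 59.7 in cell 42 and 305 in cell 44. With Six2 the lowest, median and highest were 0, 2.02 and 134 RPKM, so all 6 cells lay above the median. The difference was 3.79 (6.07 ± 1.73 against 2.28 ± 1.84, mean log2 ± SD). In the Crym-low cells the median was 9.30 RPKM.

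Maged2, a MAGE family gene tied to salt handling in the fetal kidney, was at 1794 RPKM in cell 7, 244 in cell 32, 498 in cell 38, 846 in cell 41, 332 in cell 42 and 134 in cell 44. With Six2 it ranged from 0.238 to 839 RPKM around a median of 51.0, and the Crym-low median was 634. The difference was 3.43. Lgals1, the sugar-binding protein galectin-1, was at 1704 RPKM in cell 7, 44.1 in cell 32, 330 in cell 38, 483 in cell 41, 760 in cell 42 and 58.3 in cell 44, against a median of 68.2 with Six2 and 470 in Crym-low cells, a difference of 2.97. Cells 7, 41 and 42 exceeded the highest cell with Six2 (330 RPKM) for Lgals1, cell 38 was level with it, and cells 32 and 44 lay below the median.

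The transcript 2610307P16Rik had the most even level: 90.3 RPKM in cell 7, 74.5 in cell 32, 66.5 in cell 38, 76.8 in cell 41, 57.5 in cell 42 and 83.9 in cell 44. It was detected in 15 of 24 cells with Six2, with a median of 5.53 and a highest value of 103 RPKM, and its SD in log2 units was 0.23 in the 6 cells and 2.47 in the 24. In the Crym-low cells the highest value was 24.5 RPKM, below all 6 cells. Its difference was 3.40 and stayed between 3.34 and 3.47 as single cells were left out.

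Tgfbi, a secreted matrix protein, was at 15.7 to 182 RPKM in the 6 cells (median with Six2 8.61, difference 2.78). Msh6, a DNA mismatch repair protein, was at 5.29 to 109 RPKM in all 6 and detected in 12 of 24 (2.93), and Nrip1, a corepressor of nuclear receptors, in all 6 and in 11 of 24 (2.62). They were 2 of 12 genes (0.132%) detected in all 6 cells and in 12 or fewer of the 24. Ankrd16 (3.20) was at 27.3 to 55.3 RPKM in 5 cells and listed at 0 in cell 7, and Glt8d1, a glycosyltransferase (3.05), at 31.5 to 51.1 in 5 cells and listed at 0 in cell 32. Aatf (3.40), Pank3, a pantothenate kinase (2.63), Shprh (2.63), 0610037L13Rik (2.56) and Hoxb7 (2.69) completed the 15.

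Of 189 genes that met the rule for lower genes, the 15 largest were named, and the other 14 follow Osr1. Mrpl47, a protein of the mitochondrial ribosome, was listed at 0 in all 6 cells and detected in 20 of 24, with a median of 20.3 and a highest value of 129 RPKM. In the Crym-low cells 8 of 19 detected it. Emg1, a ribosome assembly factor, was at 0 in cells 7 and 32, 168 RPKM in cell 38, 14.5 in cell 41, 197 in cell 42 and 0.949 in cell 44. With Six2 it was found in all 24 cells, at 48.2, 170 and 485 RPKM as the lowest, median and highest. Cells 7, 32, 41 and 44 lay below every cell with Six2, and cells 38 and 42 lay near its median (difference -4.14).

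Hsd17b12, an enzyme of fatty acid elongation, was at 15.6 RPKM in cell 7, 1.74 in cell 32, 14.4 in cell 38, 1.15 in cell 41, 0.746 in cell 42 and 0.220 in cell 44, against a median of 90.5 and a lowest value of 0.673 with Six2 (-4.14). All 6 cells lay far below that median. Vti1b, a SNARE protein of vesicle fusion (-3.87), was at 1.21 RPKM or less in the 6 cells and detected in 20 of 24. Cdca4, a cell division gene (-3.81), was at 3.35 RPKM in cell 41 and at 0.420 or less in the others.

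Tmem85, a subunit of the ER membrane complex (-4.15), was at 43.3 RPKM in cell 38 and at 2.33 or less in the rest. N6amt2 (-3.64) was at 140 RPKM in cell 41 and listed at 0 in the other 5, and Tmed1, a cargo receptor of the early secretory pathway (-3.73), was at 92.6 RPKM in cell 41 and 11.7 in cell 44 only. Arl8b (-4.06), Pfdn2 (-4.04), Polr1c (-3.90), Mrpl23 (-3.86), Lsm3 (-3.75) and Swi5 (-3.67) were each detected in 2 to 4 of the 6 cells and in 21 to 23 of the 24. They serve lysosome transport, protein folding, RNA polymerases I and III, the mitochondrial ribosome, RNA splicing and DNA repair, respectively. In the Crym-low cells Arl8b had a median of 143 RPKM and Lsm3 of 146, against 139 and 214 with Six2, whereas Polr1c stood at 20.4 against 89.6 and Mrpl23 at 27.2 against 109.

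Of 15 genes of retinoic acid handling in the table, 10 passed the filter, 2 were higher and none lower, against 1.19% of all genes called higher, with a median difference of 0.68 against -0.28 over all genes. Besides Crabp1 the higher gene was Stra6, the receptor that takes up retinol (2.08), at 72.5 RPKM in cell 38, 33.1 in cell 41, 22.6 in cell 32 and 15.7 in cell 44. The difference of Stra6 was 1.56 without cell 38, 1.79 without cell 41, 1.89 without cell 32 and 1.99 without cell 44, and the list had 0 higher genes without cell 38 or cell 41. Without cell 32, 42 or 44 it had 1. Over all genes 1.38 to 1.96% were higher in these settings. Dhrs3, a retinaldehyde reductase, was at 148 to 762 RPKM in the 6 cells against a median of 249 (1.42). Aldh1a2 (1.06) and Crabp2 (0.94) also lay above 0, and the receptors Rarb (-0.62) and Rara (-0.58) below it.

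Of the Hox genes, 32 were in the table and 31 passed, with 1 higher and 1 lower, near the 1.19% and 4.15% of all genes, and a median difference of -0.07. Hoxb7, a Hox gene also expressed in the ureteric bud, was at 18.5 RPKM in cell 7, 3.25 in cell 38, 52.2 in cell 41, 31.4 in cell 42 and 164 in cell 44 and listed at 0 in cell 32, while 6 of 24 cells with Six2 detected it. Hoxb9 (-2.54) was at 13.1 RPKM in cell 38 and listed at 0 in the other 5, while 16 of 24 detected it. The counting was not stated to use strand, so reads of these genes and of antisense transcripts in the cluster cannot be told apart. Hoxd10 was detected in all 6 cells (28.8 to 164 RPKM, 1.84).

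No gene of the GDNF and FGF list (21 in the table, 16 passed, median difference -0.62), the Wnt list (24, 16 and -0.24), the BMP list (17, 12 and -0.02) or the thyroid hormone list (7, 4 and 0.13) was called. Nearest to the cut were Gfra1, the GDNF co-receptor (-1.94), at 61.5 RPKM in cell 32 and 10.4 in cell 38 only, and Etv5, a target factor of that pathway (-1.74). Etv4, its close relative (-1.12), was below 1 RPKM in all 6 cells and detected in 11 of 24. Fgfr2, a receptor for fibroblast growth factors (-1.53), was above 1 in 4 of 6 and in 23 of 24, and Fgfr1 (0.78) at 6.00 to 162 RPKM in all 6.

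Genes of the cell cycle lay lower in cells 32, 42 and 44, which had few genes detected, than in cells 38 and 41. Of 42 genes of the G1/S list 8 were lower and none higher (median difference -0.81), and of 50 genes of the G2/M list that passed 14 were lower and none higher (-1.28). Over all genes 4.15% were lower and the median difference was -0.28. The G1/S genes were Cdca7, Pcna, Rpa2, Rfc2, Prim1, Rrm2, Uhrf1 and Fen1. The G2/M genes were Cks1b (-3.35), Cenpa (-3.32), Cks2 (-3.11), Tacc3, Ect2, Ccnb2, Ccnb1, Lbr, Cdca3, Ttk, Tubb4b, Kif2c, Nuf2 and Aurkb. Pcna, the sliding clamp of DNA replication, was at 276 RPKM in cell 38 and 245 in cell 41, beside the median of 250 with Six2, and at 0.394 to 46.6 in the other 4.

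Cells 38 and 41, with many genes detected, ranked 26 and 23 of 30 for the G1/S list and 15 and 20 for the G2/M list. Cells 44, 42 and 32 ranked 1, 3 and 4 for the G2/M list. Against the 6 cells with Six2 that had the fewest genes detected, 0 G1/S genes and 1 G2/M gene were lower, and the median differences were 0.06 and 0.68. Over all genes 6.88% were lower there and the median was -0.08. With cells 38 and 41 alone the G1/S median was 0.88 with 3 genes lower, and the G2/M median was -0.19 with 7 lower. Over all genes the median was then 0.16 and 4.09% were lower. The G1/S count was 5 without cell 32 or without cell 44 and 13 without cell 38, and the G2/M count was 8 without cell 44.

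**Figure D5:**
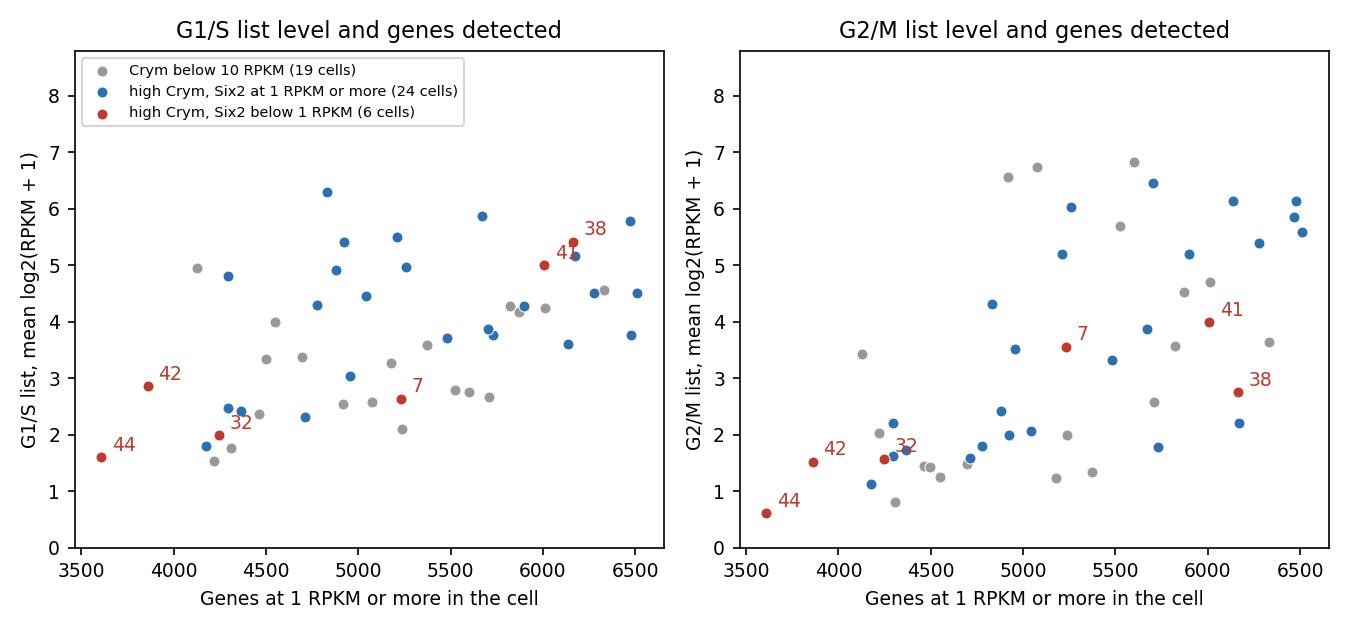
Mean log2(RPKM + 1) over the G1/S list (left) and the G2/M list (right) against the number of genes at 1 RPKM or more in each of 49 cells; numbers name the 6 cells without Six2. Cells 32, 42 and 44 lie at the lower left in both panels, and cells 38 and 41 at the right among the cells with Six2.

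Markers of other cell types were few in the 6 cells. The 2 macrophage genes and the 1 erythroid gene in the table were at 0 in all 6, and of 8 endothelial genes at most 1 per cell was detected (summed level 0 to 31.6 RPKM, against 0 to 15.6 with Six2). Of 16 ureteric bud genes, 0 to 5 were detected per cell, as in the cells with Six2 (medians 2.5 and 2). Ret, Wnt11, Wnt9b, Cdh1, Epcam, Krt8, Krt18, Krt19, Lhx1 and Emx2 were listed at 0 in all 6 cells. The summed level was 0 to 211 RPKM, against 0.201 to 294 with Six2. Cell 7 detected 5 of the list and ranked 28 of 30 for its level, with Hoxb7 at 18.5 of a summed 179 RPKM. Cell 44 detected 3 and ranked 25, with Hoxb7 at 164 of 211 RPKM. The mural list (7 in the table, 4 passed, -0.24), the early nephron list (12, 5 and 0.18) and the later nephron list (8, 2 and 0.55) had no called gene. Among 3 neural genes of the table, 1 passed (-1.63), and cell 7 detected all 3, with Tubb3 at 6.82 RPKM in a library where 1 read is worth several RPKM. The single gene in the table from the list of coelomic epithelium and gonad, Star, was at 44.3 RPKM in cell 32 (0.59).

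Of 16 housekeeping genes 1 was lower, Hprt (-2.63), against 4.15% of all genes, and the median difference was -0.33, against -0.28 over all genes. Of 13 stress genes 10 passed, none was called and the median was -0.26. Actb ranged from 2062 to 7146 RPKM in the 6 cells and from 2359 to 8341 with Six2, so the ranges overlapped.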

How the data were processed

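Single cells were captured on a Fluidigm C1, amplified with SMARTer chemistry and sequenced as Nextera XT libraries on a HiSeq2500, per the labels' protocols. The chemistry keeps neither strand nor molecular identifiers. The file headers give the deposited values as RPKM, which the authors computed. The submitters' processing notes list TopHat 1.4.1, DESeq and build mm9, without role or order. Which counter and gene models were used, and whether starts count from 0 or 1, is not stated in the labels or headers. All 13093 genes exceed 3 RPKM in at least 1 cell, so genes low in every cell were not analysed here.

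No cell was removed and no doublet caller was run, since chambers were inspected by microscope per the labels' protocols. Groups, differences of mean log2(RPKM + 1) with a pseudocount of 1, and medians were computed with pandas 2.3.3 and numpy 2.4.6. The comparison was tested on simulated data. Relative depth came from ratios of values below 8 RPKM that repeat over many genes. Reads were estimated for genes where at least 80% of values above 0 were whole multiples of 1 step, which 19 of 60 genes met. Total reads are unknown, and interval and read limits cover counting error only.

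Named genes were the members of the nephron progenitor and stroma lists, called or single-cell members of other lists, and the 15 largest differences per direction that stayed past 2 log2 units without each of the 6 cells and were detected in at least 5 of 6 cells (higher) or 12 of 24 (lower). Other names, such as Cxcr4 and list members near the size of 2 log2 units, were chosen after their values were seen. One list member is left unnamed and its values are not reported here. The members, lists and comparisons were chosen with earlier results of these data known. Alternatives changed the pseudocount, the filter, the cuts, the cells, the scaling and the summary.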

Additional observations from a re-analysis of the deposited data

Results flagged for a closer look

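Of 86 measures examined over the 6 cells, 78 of them genes, 13 had 1 cell that stood apart from the other 5, its gap to the nearest taking more of the range than Dixon's 95% critical value. Chance flags about 1 in 20 such groups, and values in single cells often jump. In 3 genes the standing cell was 41: Osr1 at 2.15 RPKM, Cited1 at 0.785 and Cdca4 at 3.35, all small values beside zeros or near-zeros. N6amt2 stood at 140 RPKM in cell 41 as well. Cell 38 stood alone for Tmem85 at 43.3 RPKM and Rarb at 19.8. Cell 44 stood alone for Tmem100 at 199 RPKM. Cell 32 stood alone for Pax2 at 2.50 RPKM and Traf1 at 0.263, and for Glt8d1, which was listed at 0 there alone. Cell 7, the shallow library, stood alone for Fgf9 at 18.7 RPKM, Tbx18 at 37.7 and Ankrd16, listed at 0 there alone.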

How the results depend on the processing

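The groups rest on measured values in 30 cells of 1 sample, 4 of the 6 cells are shallow or have few genes detected, and total depth is unknown. Over single cells left out in turn, 124 to 183 genes were higher and 333 to 619 lower (108 and 376 with all 6). Stroma genes higher then numbered 2 to 5, retinoic acid genes higher 0 to 2, G1/S genes lower 5 to 13 and G2/M genes lower 8 to 17. Without cells 3 and 7, 185 genes were higher (2.09%).

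A pseudocount of 0.1 gave 402 higher (4.44% of the genes compared) and 1294 lower genes (14.3%). Of the lists, 9 nephron progenitor genes were lower, 7 stroma genes higher, 17 G1/S and 22 G2/M genes lower. Medians in place of means gave 393 (4.34%) and 871 (9.6%), with 6 stroma genes higher and 16 G1/S genes lower. A size of 1 log2 unit gave 748 (8.26%) and 1934 (21.35%). Then 10 nephron progenitor genes were lower, 12 stroma and 4 retinoic acid genes higher, and 20 G1/S and 31 G2/M genes lower. With Six2 listed at 0, which leaves out cell 44, 166 genes were higher (1.84%), 5 of them in the stroma list and 1 in the retinoic acid list. Then 5 G1/S and 8 G2/M genes were lower, where 3.69% of all genes were lower. Against cells with Six2 at 10 RPKM or more, 0 retinoic acid genes were higher and 8 G2/M genes lower. Over all genes 1.30% were then higher and 5.17% lower. Against cells with Six2 within the range of genes detected, 7 G2/M genes were lower, where 3.71% of all genes were lower.

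The other 3 alternatives were chosen after seeing the data. Against the 6 cells with Six2 with the fewest genes detected, 333 genes were higher and made up 48.0% of the called genes (22.3% with all 24). In that setting 6.35% of all genes were higher and 6.88% lower. The filter of at least 5 cells left 5247 genes there, against 9059 with all 24. Of these 5247 genes, 9 higher and 8 lower ones did not overlap. Of the lists, 3 nephron progenitor genes were lower, 5 stroma genes higher, 0 G1/S and 1 G2/M genes lower. The G2/M median was 0.68. Genes called lower turned above 0: Pcna 0.52, Fen1 0.39, Rrm2 0.69, Aurkb 1.13, Ect2 0.82 and Ccnb1 0.54. With cells 38 and 41 only, 994 genes were higher (73.7% of those called and 11.4% of all genes), and 4.09% of all genes were lower. With these cells 33 higher and 7 lower genes of 8687 compared did not overlap. Of the lists, 9 stroma genes were higher, 3 G1/S and 7 G2/M genes lower, and the G1/S median was 0.88. Pank3 was then at -0.0053, and Pcna 0.83, Uhrf1 0.93, Rfc2 0.27, Rpa2 2.13, Rrm2 2.70, Cks1b 0.39 and Aurkb 0.22 lay above 0. With cells 32, 42 and 44 only, 284 genes were higher (3.30%) and 1197 lower (13.9%). Here 12 higher and 8 lower genes of 8601 compared did not overlap. Of the lists, 1 stroma gene and 0 retinoic acid genes were higher, and 22 G1/S and 32 G2/M genes were lower. Fewer cells, as in all 3 of these settings, make wide differences and gaps without overlap more frequent. The cause of the other changes was not tested.

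The stroma median stayed above 0 (0.30 to 1.82) under every alternative run, where the median of all genes ran from -0.70 to 0.16. The nephron progenitor median ran from -1.03 to -0.00, below that of all genes but often close to it. It was -0.12 against -0.08 with the fewest genes detected and -0.29 against -0.20 within the range of genes detected. With cells 32, 42 and 44 it was -0.78 against -0.70, with medians -0.0028 against 0, and with cells 38 and 41 -0.54 against 0.16. Osr1 ran from -6.08 to -3.98 and Cxcl12 from 2.31 to 5.43. Of the 30 genes named by size, 11 of 15 higher and 10 of 15 lower ones were past 2 log2 units in every setting, and only Pank3 changed sign. They were chosen to stay past that size without each of the 6 cells. The settings that leave out 1 of those cells were therefore met by choice. Scaling each cell by its median ratio moved the median of all genes from -0.28 to -0.19. No paired analysis was possible because the cells carry no number shared between groups.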
